A study of Mus musculus with 35 samples.

Results

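The transcription factor genes Pax6, Sox2, Six3, Six6, Rax, Lhx2, Meis1 and Meis2 of retinal progenitor cells were followed through chromatin profiles of the developing mouse retina. They were taken by name and not by any measured value, and all 8 were found among the 15153 protein-coding genes whose starts could be placed on the genome build of the files. The study profiled the retina by chromatin immunoprecipitation and sequencing (ChIP-seq) for the histone marks H3K4me3, H3K27Ac and H3K27me3, and for Brg1, the ATPase subunit of the BAF chromatin remodelling complex. Of the 35 samples, 27 had a peak file, and the other 8 were input controls with no file used here. The wild-type retinae were of postnatal day 0 (P0), P12, P14 and P21, and retinae labelled BRG1 -/- were of P12.

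Each wild-type stage of P0, P14 and P21 had 2 libraries of each mark. At P12 there was 1 wild-type library of H3K27Ac, 1 of H3K4me3 and 2 of H3K27me3, against 2, 1 and 1 Brg1-deficient libraries. Brg1 was profiled in 1 library, from P0 retina of mice labelled BRG-FLAG, in which the endogenous protein carries a FLAG tag that was immunoprecipitated. The Brg1-deficient retinae came from Chx10-Cre;Brg1Lox/Lox mice, in which Cre acts in retinal progenitor cells as a mosaic, so that stripes of wild-type cells remain and their share varies between mice. For ChIP-seq the study preferred mice with small eyes, in which Cre expression was more extensive, to lower the share of wild-type cells. No Brg1 profile of a Brg1-deficient retina was analysed here, so the deletion could not be checked in these files. The study calls its ChIP-seq replicates biological, and the labels do not tie libraries to animals, so p-values measure the spread between these libraries.

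Retinal progenitor cells are the dividing cells of the immature retina from which all its neurons and Müller glia arise. Rax, Six3, Pax6, Lhx2 and Six6 are homeobox genes of the eye field and optic vesicle, Sox2 is an HMG-box gene that maintains neural progenitors, and Meis1 and Meis2 are homeobox genes of the TALE class that act upstream of Pax6 in eye development. After birth most progenitors leave the cell cycle and rods become the main cell type. Pax6, Sox2, Six3, Lhx2, Meis1 and Meis2 are kept in some mature amacrine, horizontal or Müller glial cells. Six6 and Rax are also kept in subsets of mature retinal cells. H3K4me3 marks active and poised promoters, H3K27Ac marks active promoters and enhancers, and H3K27me3 is laid down by Polycomb complexes at silenced developmental genes. In whole retina, fewer marked cells and less mark per cell cannot be told apart.

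The sequence just before the start is shown for 6 of these promoters because they stand at the ends of the patterns described below: Pax6, Sox2, Lhx2 and Six3 at one end, Meis1 at the other and Six6 between them. The sequences are from RefSeq on build GRCm38.p6, 250 bases each, read 5′ to 3′ on the strand of the gene, with every CG dinucleotide in capitals.
Pax6, first start, chr2:105668646-105668895 (+ strand): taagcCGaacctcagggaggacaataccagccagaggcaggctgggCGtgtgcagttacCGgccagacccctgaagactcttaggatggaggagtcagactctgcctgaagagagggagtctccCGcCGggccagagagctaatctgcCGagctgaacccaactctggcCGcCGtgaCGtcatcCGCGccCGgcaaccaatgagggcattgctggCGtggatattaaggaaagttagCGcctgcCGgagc
Sox2 chr3:34649745-34649994 (+ strand): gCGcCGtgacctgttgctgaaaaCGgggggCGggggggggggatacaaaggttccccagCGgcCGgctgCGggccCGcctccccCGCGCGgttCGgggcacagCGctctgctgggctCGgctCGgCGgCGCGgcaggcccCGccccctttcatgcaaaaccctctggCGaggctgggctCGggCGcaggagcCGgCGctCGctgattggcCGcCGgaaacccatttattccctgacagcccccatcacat
Lhx2, second start, chr2:38351058-38351307 (+ strand): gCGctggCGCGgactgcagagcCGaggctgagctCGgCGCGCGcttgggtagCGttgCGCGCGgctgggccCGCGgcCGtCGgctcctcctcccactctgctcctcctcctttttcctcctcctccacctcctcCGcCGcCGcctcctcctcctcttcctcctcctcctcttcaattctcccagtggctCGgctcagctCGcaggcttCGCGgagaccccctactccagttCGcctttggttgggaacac
Six3 chr17:85620584-85620833 (+ strand): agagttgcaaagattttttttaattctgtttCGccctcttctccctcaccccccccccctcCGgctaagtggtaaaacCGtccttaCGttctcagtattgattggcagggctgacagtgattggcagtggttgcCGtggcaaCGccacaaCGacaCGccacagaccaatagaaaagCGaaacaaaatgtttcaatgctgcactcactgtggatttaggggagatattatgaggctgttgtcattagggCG
Six6 chr12:72939632-72939881 (+ strand): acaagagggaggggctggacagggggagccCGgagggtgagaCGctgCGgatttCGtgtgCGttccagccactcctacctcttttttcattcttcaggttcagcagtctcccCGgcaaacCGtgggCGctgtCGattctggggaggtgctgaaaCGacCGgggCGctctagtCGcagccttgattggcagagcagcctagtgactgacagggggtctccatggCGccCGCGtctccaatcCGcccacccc
Meis1 chr11:19018970-19019219 (− strand): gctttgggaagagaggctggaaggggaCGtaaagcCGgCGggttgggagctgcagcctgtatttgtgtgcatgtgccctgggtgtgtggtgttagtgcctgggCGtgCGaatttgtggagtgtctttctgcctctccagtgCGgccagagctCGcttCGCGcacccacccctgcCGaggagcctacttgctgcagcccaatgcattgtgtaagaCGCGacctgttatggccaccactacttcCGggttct

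The number of CG dinucleotides differed between these promoters. Over the 250 bases there were 27 CG dinucleotides at Sox2, 24 at Lhx2, 17 at Six6, 15 at Pax6, 13 at Meis1, 10 at Six3 and 7 at Meis2, where the median over 18415 promoters was 10. Sox2 stood at percentile 88.6 of all promoters and Meis2 at percentile 40.5. The letters TGACAG, the core of sites bound by Meis proteins, were searched on both strands and occurred at Sox2, Six3, Six6 and the second start of Pax6, beside 15.4% of all promoters. The letters CCAAT, searched in the same way, occurred 3 times at Six3, 2 times at Six6 and once each at Sox2, Meis1, Meis2 and the first start of Pax6, beside 35.0% of all promoters. These are descriptions of letters in this window only. Rax had no promoter sequence in the reference used, so it was neither counted nor searched.

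A peak is described by its height, the fold enrichment over background that the peak caller gave. A promoter is described by the highest peak that reaches within 2 kb of a gene start, wherever its summit lies. A gene without a peak there is given as 0, which says only that no peak was listed. The H3K4me3 libraries were alike in number, with 18534 to 24124 peaks and a peak at 60.5 to 63.6% of coding genes, but not in height, with median peak heights from 16.3 to 27.7 and factors of 1.70 and 0.641 that scaled the first and second P21 library to the others. The H3K27Ac libraries were not: the first libraries of P14 and P21 had 17433 and 18718 peaks and a peak at 38.4% and 32.7% of genes, against 50005 and 45833 peaks and 59.3% and 55.6% in the second, and the P0 libraries had 17588 and 29304 peaks and 50.8% and 57.3%. Read numbers are unknown from these files, and the part that depth had in a missing peak was not tested. Defining markers were read from the same promoters. The 3 rod genes in the table, Sag, Pde6b and Nrl, had H3K27Ac in both libraries at 0 of 3 promoters at P0 and at 3 of 3 at P14 and at P21. The 3 lens and 2 microglial markers, Alb and the cone genes Opn1sw and Arr3 had neither active mark in both libraries of any of these stages. Of 5 amacrine and horizontal markers, cell types that keep Pax6, 3 had H3K27Ac in both libraries at P0 and 1 at P14 and at P21, and H3K4me3 was at 5, 5 and 4 of them. Of the bipolar, ganglion and retinal pigment epithelium markers in the table, none had H3K27Ac in both libraries of any stage, and the Müller glial one had it at every stage.

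Brg1 lay at the starts of all 8 genes in P0 retina, where 54.8% of coding genes had such a peak. Six3 had the highest at 18.3, followed by Meis1 at 16.0, Rax at 13.9, Six6 at 12.4, Sox2 at 11.8, Lhx2 at 11.7, Pax6 at 10.7 and Meis2 at 9.28. These peaks reached into the 2 kb window, but some summits lay outside it. The distance to the nearest start was 2.82 kb at Six3, 3.44 kb at Rax, 2.33 kb at Six6 and 2.82 kb at Lhx2. The Brg1 peak over the Six6 start itself had a height of 7.33. The median among the 8298 genes with a Brg1 peak at the start was 5.91. Meis2 was at percentile 87.1 of those genes, and the other 7 lay between percentile 93.1 for Pax6 and 99.8 for Six3. With 1 library, the order among the 8 has no error and neighbours in it cannot be separated.

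Brg1 was not confined to the starts. Within each gene and 20 kb on each side there were 106 Brg1 peaks in all, 17 at starts and 89 away from them. Meis1 had 24, Sox2 22, Lhx2 and Six3 13 each, Pax6 12, Meis2 11, Rax 6 and Six6 5. The peaks covered 63.4% of the Six3 locus, 57.4% of Sox2, 48.4% of Pax6, 28.6% of Rax, 26.6% of Lhx2, 26.2% of Six6, 14.6% of Meis1 and 4.44% of Meis2. The median over all coding genes was 1.52%. The Meis1 and Meis2 genes are the longest of the 8, so that their starts form a small part of the measured stretch.

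Single Brg1 peaks at these genes were long. The median Brg1 peak was 0.523 kb, whereas one peak that reached over the Six3 start was 14.8 kb (mm9 chr17:86005882-86020729), one over the first Pax6 start was 12.1 kb (chr2:105506255-105518308) and one over the Rax start was 9.29 kb (chr18:66092346-66101636). Of all 50861 Brg1 peaks, 40 reached 9 kb and 13 reached 12 kb. At Sox2 the longest, 7.27 kb (chr3:34559335-34566603), did not lie at the start but 13.7 kb downstream, with a height of 10.9. The highest Brg1 peak of any of the 8 loci, 19.1, lay 5.98 kb downstream of the Six6 start (chr12:74044195-74049211), at percentile 99.95 of all Brg1 peaks. Rax had a distal peak of 10.5 upstream at 21.2 kb (chr18:66117791-66123162). Of the 106 peaks, 32 overlapped an H3K27Ac peak in both P0 libraries, beside 26.6% of all Brg1 peaks, 58 overlapped none, beside 58.0%, and 47 overlapped H3K4me3 in both P0 libraries, beside 37.6%.

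**Figure D1:**
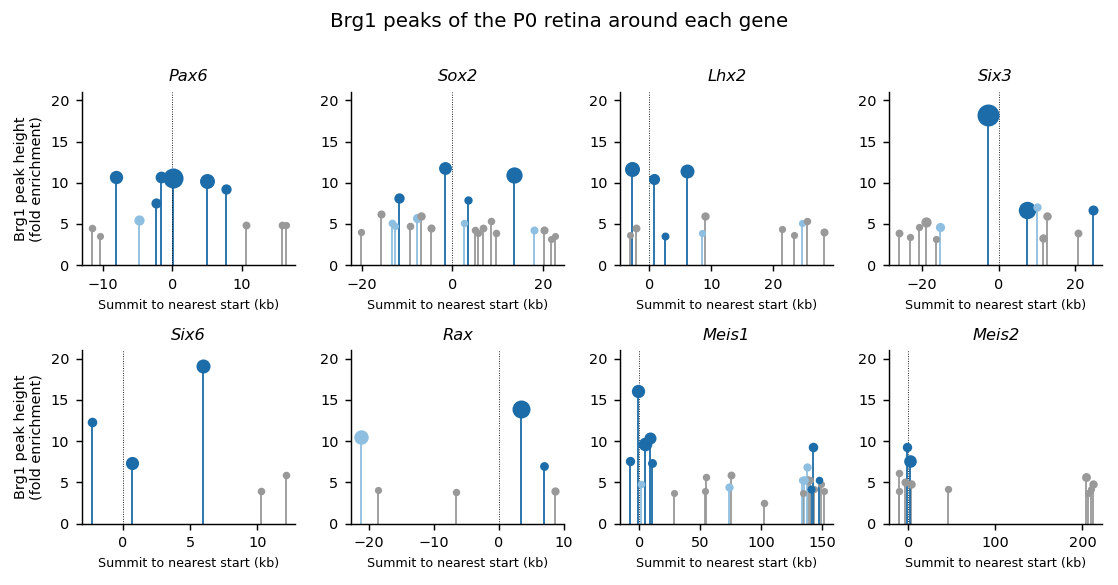
Brg1 peaks of P0 retina in the 8 genes and 20 kb on each side, by distance from the nearest start in kb (horizontal) and height as fold enrichment (vertical), with point size for peak length and colour for overlap with H3K27Ac in both, 1 or neither of the P0 libraries. Points away from the starts outnumber those at the starts, and the highest point lies about 6 kb downstream of Six6.

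H3K4me3 at the promoters separated the genes by stage. Pax6 and Sox2 had lower promoter peaks at P21 than at P0, and Pax6 at P14 as well, while the scaled mean of Meis1 differed little. At Pax6, whose product directs eye formation and is later kept in amacrine and horizontal cells, the heights were 45.0 and 42.8 at P0, 7.22 and 10.2 at P14, and 16.3 and 5.08 at P21. Every later library was below both P0 libraries. At Sox2 the heights were 35.6 and 63.9 at P0, 13.9 and 23.6 at P14, and 15.8 and 9.61 at P21, again with no overlap.

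The test was limma on the log2 scale, after scaling the libraries to one another and adding a pseudocount of 7.51, fitted over 9654 genes with Benjamini-Hochberg adjustment. Pax6 fell by 1.56 (SE 0.26, adjusted p = 0.00609) from P0 to P14 and by 1.62 (SE 0.26, adjusted p = 0.00305) from P0 to P21. Sox2 fell by 1.47 (SE 0.31, adjusted p = 0.0127) from P0 to P21, and its difference at P14 was -0.98 (SE 0.31, adjusted p = 0.134). This made 1 of 8 genes lower at P14, where 1.19% of all tested genes were lower and 0.58% higher, and 2 of 8 at P21, where 5.55% were lower and 0.901% higher. No member passed the test upward, and none differed between P14 and P21, where 0% of genes were lower and 0.0311% higher. The median difference of the 8 was -0.49 at P14 and -0.61 at P21, beside -0.03 and -0.08 over all tested genes. After scaling, both later libraries lay under both P0 libraries for Pax6, Sox2, Six3 and Lhx2 at P14, beside 25.1% of genes, and for these 4 with Rax and Meis2 at P21, beside 31.1%. Meis1 lay above P0 without overlap at P14, beside 18.7% of genes.

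These calls depended on the settings. With no filter on genes none of the 8 passed at either stage, and with a peak counted only where its summit lay in the window the adjusted p of Pax6 was 0.737 at P14 and 0.254 at P21. Without scaling, the adjusted p of Pax6 was 0.165 at P14 and 0.179 at P21, and that of Sox2 at P21 was 0.234. The Pax6 call at P14 was lost without the first P14 library (adjusted p = 0.0598), and the Sox2 call at P21 without the second P0 library (0.0804) or the first P21 library (0.136).

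The other 6 genes did not pass the test at either stage, and their values are given in full. Lhx2, a LIM-homeobox gene later kept in Müller glia, had 49.2 and 58.9 at P0, 31.5 and 34.6 at P14, and 35.1 and 25.5 at P21, a difference of -0.71 (adjusted p = 0.187) at P21. Six3 had 55.1 and 40.5, then 24.4 and 30.2, then 37.8 and 20.1, with -0.65 (adjusted p = 0.21) at P21. For both genes the later unscaled heights lay under both P0 heights. The direction for Six3 depended on the setting. With a peak counted only where its summit lay in the window, its difference from P0 was positive at P14 and at P21.

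In unscaled heights, Six6 and Rax overlapped between P0 and P21. Six6 had 53.1 and 32.4 at P0, 31.5 and 29.0 at P14, and 49.2 and 21.5 at P21. Rax had 54.1 and 38.8 at P0, 33.7 and 17.1 at P14, and 61.2 and 19.999 at P21, with a P21 library above both P0 libraries. After scaling, Rax had 53.0 and 36.9 at P0 and 35.9 and 31.2 at P21, without overlap. Before scaling, the first P21 library was the higher one at every member, and its factor was 1.70 against 0.641 for the second. After scaling, it was the lower one at Sox2, Six3, Six6, Lhx2 and Meis1 and the higher one at Pax6, Rax and Meis2.

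Meis1 had similar means over the stages, with a wide range of unscaled heights at P21. It had 39.4 and 35.4 at P0, 36.9 and 36.6 at P14, and 58.2 and 26.3 at P21, with differences of 0.12 at P14 and 0.05 at P21. Without scaling the first of these was -0.0205. Meis2 had 36.9 and 57.5 at P0, 42.0 and 26.0004 at P14, and 54.9 and 15.1 at P21, with -0.57 (adjusted p = 0.347) at P21. The single wild-type P12 library, outside this fit, had unscaled heights of 13.1 at Pax6 and 25.3 at Sox2, under both P0 libraries. At the other 6 genes it had between 52.7 and 64.5, above both P0 libraries for all of them but Meis2. Its median peak height was also higher, 27.7 against 24.2 and 25.9 at P0, and it was not scaled to them. The margin was small at Lhx2 (59.3 against 58.9) and at Six6 (53.7 against 53.1).

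**Figure D2:**
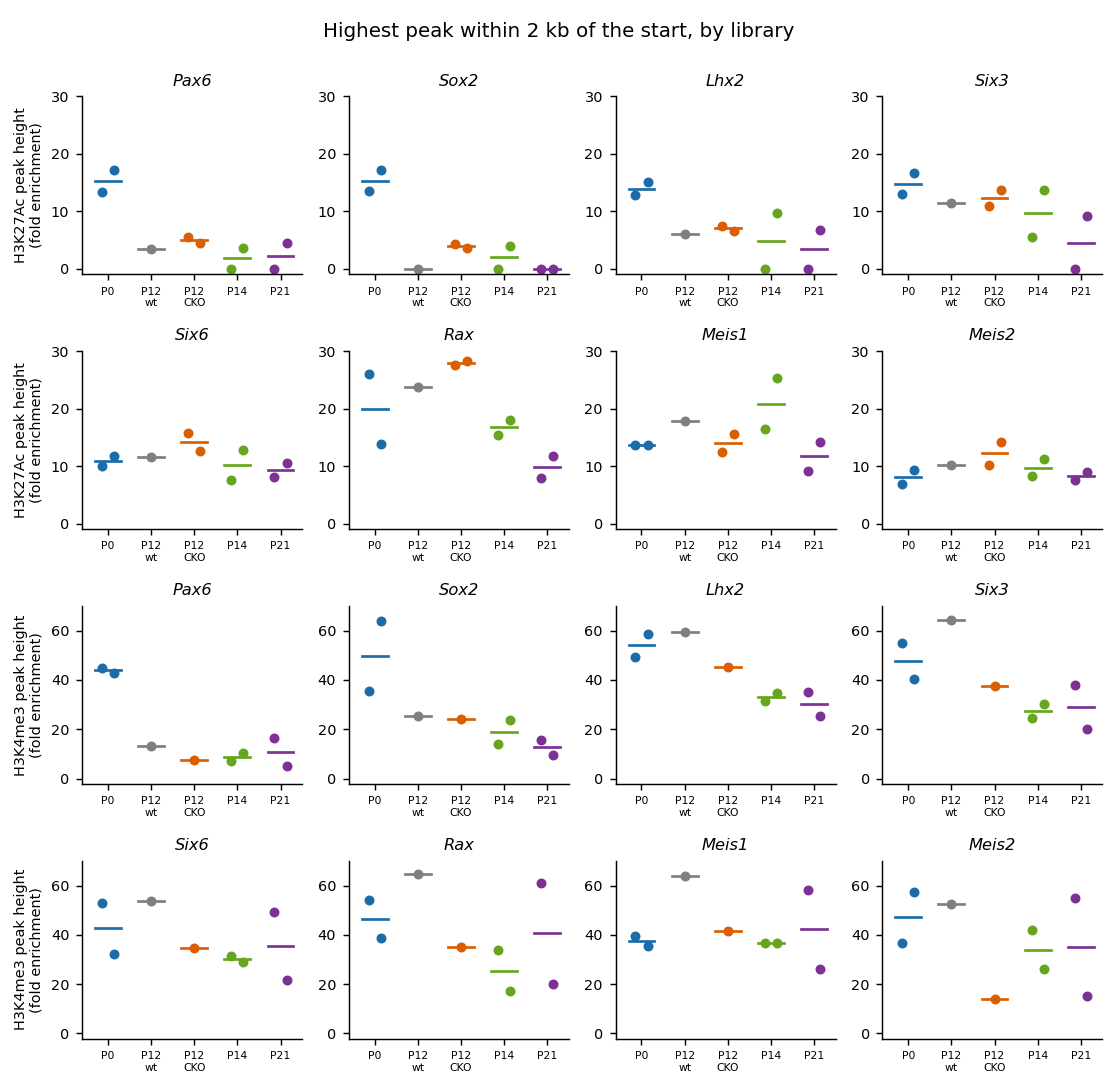
Height of the highest H3K4me3 and H3K27Ac peak within 2 kb of a start, as fold enrichment, for each gene in each group. Points are libraries and bars are means (wt, wild type; CKO, Brg1-deficient). The 2 P0 points of Pax6 and Sox2 lie above all later points in both marks, and those of Meis1 do not.

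Peak width gave a second reading of H3K4me3. At P0 the widest H3K4me3 peak at each of the 8 starts was at or above percentile 99.6 of coding genes in width, and all-gene medians in the 8 libraries were 1.53 to 1.94 kb. Six3 had the widest, 20.8 and 20.95 kb in the P0 libraries, then 3.95 and 4.33 kb at P14 and 4.22 and 3.52 kb at P21. Six6 had 10.5 and 12.4 kb at P0, 2.98 and 3.06 kb at P14, and 3.20 and 2.98 kb at P21. Sox2 had 7.80 and 9.60 kb at P0 and 1.80 to 2.03 kb in the 4 later libraries. Lhx2 had 8.08 and 8.51 kb at P0 and 1.38 to 2.13 kb later.

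Six6 was therefore narrower at both later stages, although its height at P21 overlapped that at P0. In Sox2, Six3, Six6 and Lhx2, all 4 libraries of P14 and P21 were at most 0.5 times as wide as the narrower P0 library. That was 4 of 8 genes, beside 1.07% of 9078 coding genes. Most of those genes had far narrower peaks at P0, with medians of 1.68 and 1.84 kb. The share among genes with equally wide peaks was not taken. No model was fitted to widths.

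Pax6 had a split pattern, with 11.9 and 12.4 kb at P0, 1.82 and 3.12 kb at P14, and 8.91 and 1.61 kb at P21, so that a single P21 library kept a wide peak. Rax stayed wide, at 9.32 and 10.8 kb, then 6.51 and 7.90 kb, then 9.71 and 6.63 kb. Meis1 had 8.46 and 14.5 kb at P0, 4.12 and 7.90 kb at P14, and 8.48 and 8.06 kb at P21. Meis2 had 5.69 and 9.82 kb, then 6.50 and 6.79 kb, then 4.45 and 6.50 kb. At P14 7 of the 8 genes were narrower than at P0 without overlap, but so were 52% of coding genes, and at P21 5 of 8 were, beside 24.5%. Narrower peaks at P14 were thus common to the whole table.

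**Figure D3:**
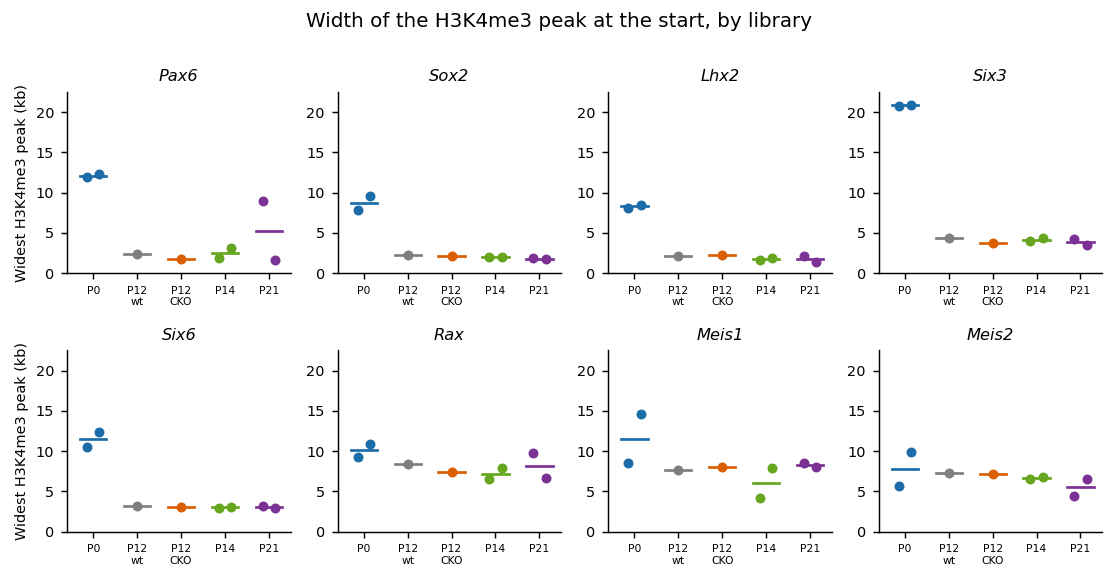
Width in kb of the widest H3K4me3 peak within 2 kb of a start, for each gene in each group, with points for libraries and bars for means (wt, wild type; CKO, Brg1-deficient). Six3, Six6, Sox2 and Lhx2 lie between 7.80 and 20.95 kb at P0 and between 1.38 and 4.33 kb at P14 and P21, while Rax, Meis1 and Meis2 are at 4.12 kb or more throughout.

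H3K27Ac at the promoter was listed for all 8 genes in both P0 libraries, for 5 in both P14 libraries and for 4 in both P21 libraries, beside 50.5%, 38.4% and 32.7% of coding genes. Pax6 had 13.3 and 17.1 at P0, 0 and 3.68 at P14, and 0 and 4.40 at P21. Sox2 had 13.5 and 17.2 at P0, 0 and 3.95 at P14, and no peak at P21. Lhx2 had 12.8 and 15.1 at P0, 0 and 9.71 at P14, and 0 and 6.82 at P21. The zeros at P14 and P21 were in the first libraries, those with few peaks, except that Sox2 also had none in the second P21 library.

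Six3 had 13.1 and 16.6 at P0, 5.58 and 13.8 at P14, and 0 and 9.12 at P21. Six6 had 10.02 and 11.7, then 7.62 and 12.8, then 8.03 and 10.6. Rax, which is kept in photoreceptors and Müller glia, had 26.1 and 13.9 at P0, 15.4 and 18.1 at P14, and 8.01 and 11.8 at P21. Meis1 had 13.7 and 13.8, then 16.5 and 25.3, then 9.16 and 14.2, and Meis2 had 6.86 and 9.38, then 8.24 and 11.3, then 7.64 and 9.01. For Six6 and Meis2 the stages overlapped, for Meis1 both P14 libraries were the higher ones, and for Rax both unscaled P21 heights lay under both P0 heights.

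No gene of the 8860 tested passed limma for H3K27Ac promoter height at P14 or P21 against P0 or between P14 and P21 (0% in each direction, pseudocount 3.24), although 653, 914 and 101 genes had an unadjusted p under 0.05. The differences from P0 were -2.04 (SE 0.51, adjusted p = 0.409) at P14 and -1.80 (SE 0.51, adjusted p = 0.323) at P21 for Pax6. Sox2 had -2.03 (SE 0.39, adjusted p = 0.362) at P14, and at P21, where it was listed at 0, an adjusted p of 0.213. Lhx2 had -1.59 and -1.51 and Six3 had -0.67 and -1.43, with adjusted p from 0.509 to 0.837. Six6, Rax, Meis1 and Meis2 lay between -0.39 and 0.41 at both stages.

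Without the first P21 library, the difference at P21 was -1.20 for Pax6, -0.71 for Lhx2 and -0.48 for Six3. Without the first P14 library, the difference at P14 was -1.71 for Pax6, -1.67 for Sox2, -0.88 for Lhx2 and -0.60 for Six3. After scaling, both P14 libraries lay under both P0 libraries for Pax6, Sox2, Six3, Six6 and Lhx2, beside 29.6% of genes, and both P21 libraries for Pax6, Sox2, Six3 and Lhx2, beside 28.4%. Both lay above P0 for Meis1 at P14, beside 14.9% of genes, and for Meis1 and Meis2 at P21, beside 15.7%.

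The pattern was wider than the promoter. Over the gene and 20 kb on each side, H3K27Ac peaks covered 28.5% and 39.0% of the Pax6 locus at P0, 0 and 8.41% at P14, and 0 and 2.44% at P21. They covered 9.56% and 29.8% of the Sox2 locus at P0, 0 and 0.57% at P14, and none at P21. Six3 had 30.2% and 42.7% at P0, 1.84% and 19.6% at P14, and 0 and 9.49% at P21, and Lhx2 had 10.2% and 14.6%, then 0 and 6.08%, then 0 and 3.27%.

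In these 4 of 8 loci both later libraries lay under both P0 libraries at P14, beside 3.9% of coding genes, and at P21, beside 8.82%. Most coding genes had far less to lose, with a median of 0.67% and 1.36% of the locus covered in the P0 libraries. The share among loci with equal coverage at P0 was not taken. The first libraries of P14 and P21, with few peaks, and the second, with more peaks than either P0 library, each lay under both P0 libraries in all 4, and the part of read depth was not tested. Meis1 had higher values later, from 5.10% and 10.3% at P0 to 5.65% and 15.6% at P14 and 10.4% and 14.1% at P21, and Meis2 from 0.68% and 0.75% to 0.98% and 3.33% and then 1.63% and 2.31%. Meis2 at P14 and both Meis genes at P21 had no overlap with P0, beside 16.3% and 20.7% of genes. Rax had 10.5% and 21.4%, then 15.3% and 27.7%, then 21.3% and 26.03%, and Six6 10.5% and 21.6%, then 8.33% and 15.3%, then 10.1% and 12.2%.

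Individual H3K27Ac regions, made by merging overlapping peaks of all libraries, were tested by limma in the same way over 33340 regions (pseudocount 2.08). The 8 loci held 114 regions, of which 63 had a peak in at least 2 of the 6 libraries and were tested. At P21 against P0, 10 of the 63 were lower, beside 2.46% of all regions, and 4 were higher, beside 7.94%. The lower ones were 4 at Lhx2, 3 at Sox2, 2 at Pax6 and 1 at Six3, and the higher ones were 3 at Meis1 and 1 at Rax. All 10 lower regions had no peak in either P21 library and all 4 higher ones none in either P0 library, so no fold is given for them. Of the 14, 6 lower regions had peaks at P0 alone and 1 higher region at P21 alone, which means that they entered the test only through the stage where they were high.

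These 14 calls had adjusted p from 0.0477 to 0.0493 and were fragile. None was left without the first or second P0 library, the first P14 library or the first P21 library, nor without scaling, and 22 regions passed without the second P14 library. At P14 against P0, and between P14 and P21, no region passed (0% in each direction), although 5337 and 2006 had an unadjusted p under 0.05.

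The 8 loci held 38 regions with an H3K27Ac peak in both P0 libraries, and all 38 overlapped a P0 Brg1 peak, beside 89.6% of such regions in the genome. Of these, 16 had no peak in either P21 library, beside 14.6% in the genome, namely 5 of 5 at Sox2, 4 of 7 at Lhx2, 3 of 6 at Six3, 2 of 5 at Pax6 and 2 of 8 at Meis1. At Sox2, the region 13.8 kb downstream (mm9 chr3:34561567-34564693), inside the long Brg1 peak described above, had 11.8 in each P0 library and no peak in any of the 7 libraries of P12, P14 and P21. It was among the regions that passed, having entered the test through its P0 peaks alone. At Lhx2, the region beside the second start (chr2:38206628-38209392) had 12.8 and 15.1 at P0, 0 and 4.85 at P14 and none at P21, and also passed the test.

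Six6 and Rax had distal H3K27Ac at the later stages, at Six6 in a region already marked at P0. The region downstream of Six6 at 5.38 kb (chr12:74044613-74047921), under the highest Brg1 peak, had 10.03 and 17.0 at P0, 16.7 and 22.8 at P14, and 9.63 and 15.5 at P21. The stages overlapped there. Upstream of Rax by 7.21 kb (chr18:66104757-66106433), there was no peak at P0, 5.09 and 7.19 at P14, and 5.46 and 7.56 at P21. This was the Rax region that passed the test upward at P21. Upstream of Rax by 22.8 kb (chr18:66117581-66124818), over the distal Brg1 peak of P0, the heights were 0 and 6.02 at P0, 10.1 and 7.70 at P14, and 9.86 and 9.50 at P21, which did not pass the test (1.88, adjusted p = 0.205).

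Of the 114 regions, 48 had no peak in either P0 library, beside 37469 of 64281 regions in the genome. They included 33 of the 49 regions at Meis1, 6 of 10 at Rax and 6 of 8 at Meis2. The Meis1 locus is 179 kb long, and 25 of its 49 regions had a peak in at least 2 of the 6 libraries. Over a P0 Brg1 peak lay 14 of the 48, beside 16.5% of such regions in the genome. A peak in both P14 and both P21 libraries was present in 5 of the 48, 4 at Meis1 and 1 at Rax, beside 7.18% in the genome. Of these, a region inside the Meis1 gene and 55.3 kb from its start (chr11:18861127-18866323), had no peak at P0, 13.3 and 11.7 at P14, and 11.6 and 6.84 at P21. It lay over a Brg1 peak of P0, and it was just short of the threshold at P21 (adjusted p = 0.05001). A neighbouring region 60.8 kb from the start (chr11:18857525-18858815), not over Brg1, had none at P0, 3.55 and 5.79 at P14, and 4.86 and 7.36 at P21, and passed the test upward.

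**Figure D4:**
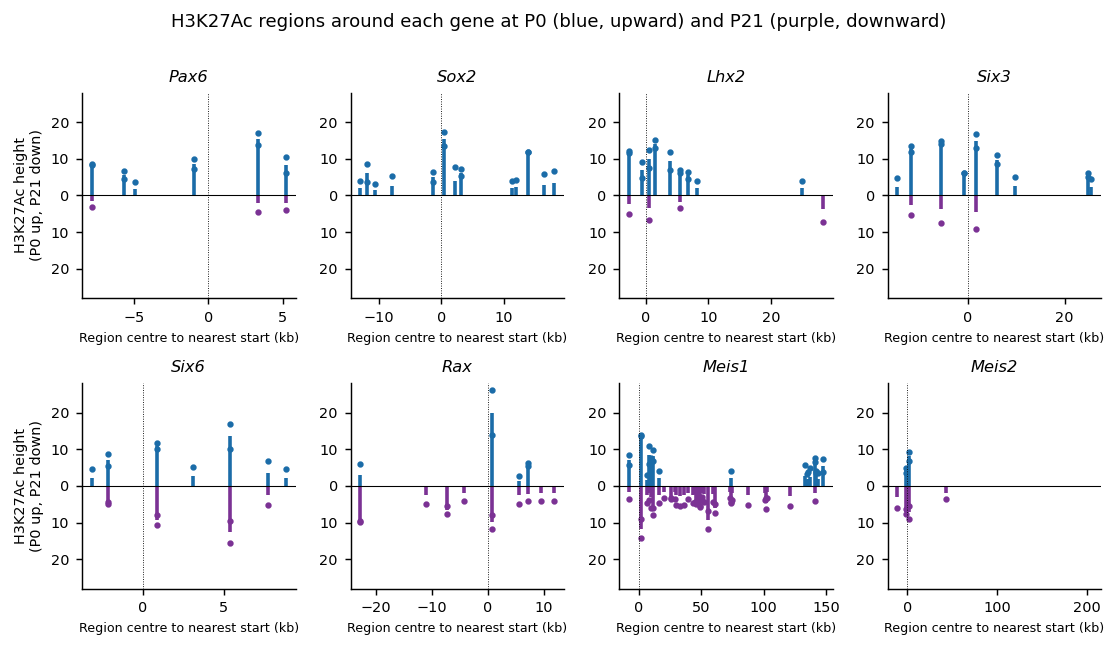
H3K27Ac regions of the 8 loci by distance of the region's centre from the nearest start in kb (horizontal) and height as fold enrichment (vertical), with P0 upward in blue and P21 downward in purple. Bars are means of the 2 libraries and points are libraries with a peak. Sox2 has no purple bar, Six6 has bars on both sides at its highest regions, and Meis1 has many regions inside the gene with a purple bar and no blue one. P14 is not drawn.

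H3K27me3 was called as islands, broad stretches joined from 200 bp windows, and is given as the share of a stretch that islands cover. The P0, P14 and P21 libraries were made with the antibody labelled AB1 and the P12 libraries with AB3, so P12 is compared only within itself. Covered length over the genome was 96.7 and 114 Mb at P0, 127 and 213 Mb at P14, and 142 and 152 Mb at P21, so that later libraries covered more. The shares are given as values, with no test.

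Pax6 and Sox2 had the widest margins between P0 and the later stages. The Pax6 locus was covered at 11.5% and 14.1% at P0, 56.7% and 63.1% at P14, and 56.2% and 64.5% at P21. The island over its start was 3.80 and 4.60 kb wide at P0, 39.4 and 41.4 kb at P14, and 39.0 and 39.2 kb at P21. The Sox2 locus was at 60.8% and 61.1% at P0, 100% and 98.1% at P14, and 100% in both P21 libraries, and its island widened from 6.20 and 17.4 kb to between 42.0 and 52.2 kb. Its start was within an island in every library, P0 included.

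Lhx2 and Six3 followed with smaller values. The Lhx2 locus had 15.3% and 29.5% at P0, 37.2% and 41.2% at P14, and 35.5% and 39.2% at P21. The Six3 locus had 0 and 6.85%, then 20.9% and 38.0%, then 30.05% and 46.4%, and the 4 kb around its start had none at P0, 0 and 80.0% at P14, and 80.0% and 100% at P21.

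The other 4 genes had less of the locus covered at P14 and P21, at most 13.9% in any library. Meis1 had none around its start in any of the 9 libraries, and 3.57% to 6.47% of its locus was covered. Six6 had none in its locus at P0 or P14 and 0 and 6.22% at P21. Rax had 0 and 6.75% at P0, 0 and 12.6% at P14, and 0 and 6.75% at P21, with the island in the second library of each pair, where it covered 70.3%, 90.3% and 75.0% of the start window. Meis2 had 60.8% and 49.2% of its start window covered at P0, 25.8% and 80.0% at P14, and 0 and 40.8% at P21.

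Counted without overlap, locus coverage was higher than at P0 in Pax6, Sox2, Six3, Lhx2 and Meis1 at P14, beside 27.2% of coding genes, and in the same 5 at P21, beside 26.9%. For Meis1 that difference was from 4.13% and 3.57% at P0 to 4.58% and 6.25% at P14, so the count joins very unequal sizes. Meis2 was lower at P21, beside 27% of genes. Around the start itself the P14 libraries were higher for Pax6, beside 14.1% of genes, and the P21 libraries for Pax6 and Six3, beside 15.9%. The P21 libraries were lower there for Meis2, beside 19.3%. Already at P0, H3K4me3 and an H3K27me3 island lay together at the starts of Pax6, Sox2, Lhx2 and Meis2 in both libraries of each, beside 17.1% of coding genes. Whether both marks were on the same molecules cannot be told from whole retina.

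**Figure D5:**
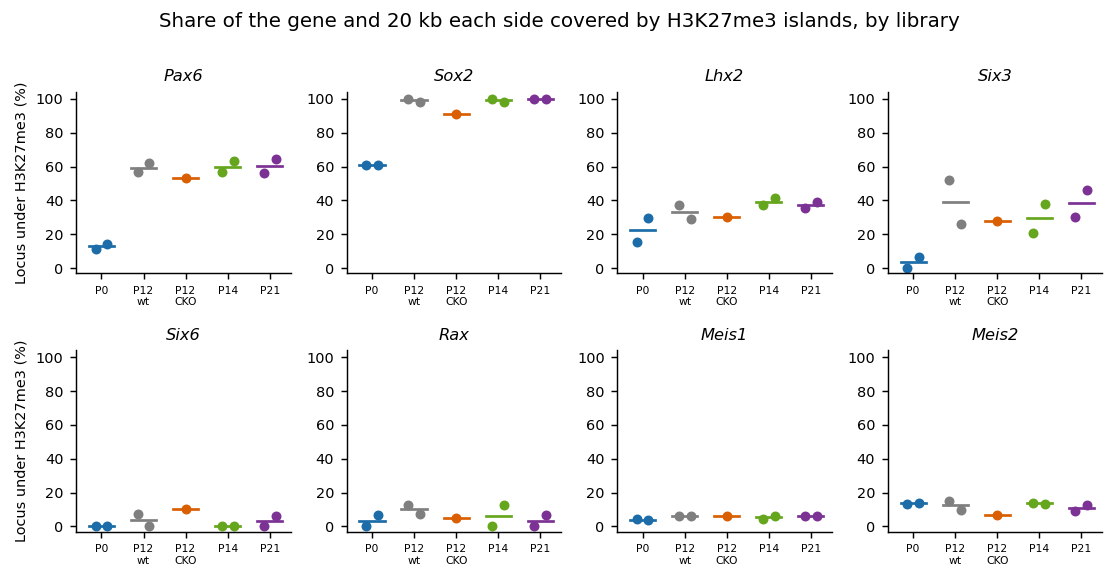
Share in percent of each gene and 20 kb on each side covered by H3K27me3 islands in each group, with points for libraries and bars for means (wt, wild type; CKO, Brg1-deficient). Pax6 is at 11.5 and 14.1% at P0 and between 56.2 and 64.5% at P14 and P21 and Sox2 there at 98.1% or more, while Meis1, Six6, Rax and Meis2 are at 15.2% or less.

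The Brg1-deficient P12 retina, with the mosaic Cre described above, was compared with wild type to ask how loss of Brg1 alters these marks. H3K27Ac at the 8 promoters was close to wild type in most cases. Pax6 had 3.40 in the wild-type library against 5.61 and 4.54, Lhx2 6.02 against 7.38 and 6.66, Six3 11.5 against 10.9 and 13.8, and Six6 11.6 against 15.8 and 12.6. Rax had 23.7 against 27.7 and 28.3, Meis1 17.9 against 12.5 and 15.7, and Meis2 10.1 against 10.3 and 14.2. Sox2 had no peak in the wild-type library and 4.29 and 3.70 in the deficient ones.

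No gene of 9107 passed limma in this comparison (0% in each direction), and 73 had an unadjusted p under 0.05. The spread was pooled over all 9 H3K27Ac libraries, since the single wild-type library was assumed to vary like the other groups. Sox2, listed at 0 in wild type, had an unadjusted p of 0.0744 and an adjusted p of 1 by limma. Meis1 differed by -0.49 (SE 0.38, adjusted p = 1), and the others were between -0.12 and 0.15, with SE from 0.38 to 0.78. Errors of that size leave room for differences of 2-fold in either direction at several genes. In scaled heights, no member with a peak on both sides was 2-fold apart from wild type in either deficient library, beside 2.56% of genes lower and 2.57% higher in the first and 2.43% and 2.91% in the second. H3K27Ac coverage of the locus was higher than wild type in both deficient libraries for Pax6, Sox2, Six3, Six6 and Lhx2, which was 5 of 8 beside 45.9% of coding genes.

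H3K4me3 had 1 library a side at P12, so its ratios have no replicate check. Scaled height in Brg1-deficient retina was 0.397 times wild type at Meis2, from 52.7 to 13.8 before scaling, and between 0.825 and 1.44 times at the other 7 genes. Of the 8 genes, 1 was thus at least 2-fold lower, beside 2.2% of 9373 genes, and none 2-fold higher, beside 2.27%. The H3K4me3 widths of Meis2 at P12 were 7.22 kb in wild type and 7.18 kb in the deficient library. Width differed little at the other genes too, with 2.36 against 1.78 kb at Pax6, 4.34 against 3.76 kb at Six3 and 8.36 against 7.40 kb at Rax.

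H3K27me3 at P12 had 2 wild-type libraries and 1 deficient library. The Pax6 locus was at 57.0% and 61.9% in wild type and 53.2% in the deficient retina, and Sox2 at 100% and 98.3% against 90.8%. Rax had 12.6% and 7.65% against 4.95%, and Meis2 15.2% and 9.66% against 6.66%. In these 4 of 8 loci the deficient library was under both wild-type libraries, beside 36.4% of coding genes. Six6 was above both, with 7.11% and 0 against 10.5%, beside 25.8%.

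Other genes of the progenitor state and of the photoreceptor lineage were read in the same tables for comparison. Of 36 other progenitor genes, 19 were in the table, and 18 of these had Brg1 at the start at P0. H3K4me3 was lower in 4 of the 19 at P14, beside 1.19% of all tested genes, and in 8 at P21, beside 5.55%, and higher in none, with medians of -0.52 and -0.91. Lin28b, an RNA-binding protein of early progenitors, had 18.7 and 25.2 at P0 and no H3K4me3 peak at P14 or P21. It is among the genes counted as lower, but it entered the test only through its P0 peaks. No fold is given for Lin28b because it was listed at 0 later. From P0 to P14, Nr2e1, an orphan nuclear receptor of neural progenitors, fell by 1.72 and Vax1, a homeobox gene of the ventral optic vesicle, by 1.41. At P21 their differences from P0 were -1.81 and -1.86. Of the 19, 5 were at most 0.5 times as wide in H3K4me3 in all 4 later libraries.

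The 10 photoreceptor transcription factor genes were all in the table and 9 were tested. H3K4me3 was higher in 2 at P14, beside 0.58% of all tested genes, and in 3 at P21, beside 0.901%, and lower in none. Nrl, which directs rod fate, had 5.81 and 5.28 at P0, 31.4 and 36.7 at P14, and 77.8 and 33.4 at P21, and rose by 2.13 (SE 0.26, adjusted p = 0.000483) to P21. Nr2e3, its rod-specific partner, rose by 1.91 and Crx, the cone-rod homeobox gene, by 1.16 over the same interval, with Crx at the threshold (adjusted p = 0.0496). For H3K27Ac no gene of either list passed, with medians from P0 to P21 of -1.40 over 16 tested progenitor genes and 1.51 over 9 photoreceptor genes, beside -0.24 over all tested genes. Of the 10 photoreceptor genes, 9 had a Brg1 peak at the start at P0, and 0 of 10 had the narrowing of H3K4me3.

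The 8 genes did not share one profile. Over the 12 wild-type promoter values of H3K4me3 and H3K27Ac, the correlation with the median profile of the 8 was 0.902 for Pax6, 0.843 for Sox2, 0.833 for Six3, 0.783 for Lhx2, 0.521 for Rax, 0.179 for Six6, -0.0812 for Meis2 and -0.415 for Meis1. The genes most like that median, among 8751 compared, were Gas1 (0.945), Gli2 (0.930), Cacnb2 (0.923), Fxyd6 (0.923) and Lhx9 (0.922). These are descriptions over 12 values that share libraries and their depth, and carry no test.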

How the data were processed

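Retina of mice was profiled by ChIP-seq, and groups followed the submitters' labels. The 18 deposited peak files of the 2 active marks and Brg1 are MACS calls on mm9, whose height column is a ratio, the fold enrichment over background that the authors deposited, beside −log10 p and q-values, an integer score and summits. The 9 H3K27me3 files are SICER islands with a score that the authors deposited and that was not used. The submitters' processing notes name BWA 0.5.9-r26, CASAVA, MACS2 2.0.9, Picard 1.65, R 2.14.0, SAMtools, SICER 1.1 and bedtools 2.17.0. Peaks were called per library, and read depth is unknown, so no interval for counting error is given.

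Gene starts of RefSeq on GRCm38.p6 were shifted to mm9 by a local offset, taken from coding genes within 5 Mb, that put the largest share of starts within 1 kb of wild-type P0 H3K4me3 peaks. Around the 8 genes this was 42.4% to 88.7% of starts. Rax, for which the table gave no start, was placed with both gene ends and a strand entered by hand. Of 17493 coding genes with a start, 15153 were placed, with an error of up to about 1 kb.

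The height of a promoter was that of the highest peak reaching within 2 kb of a start, wherever its summit lay. Libraries were scaled to each other (factors 0.641 to 1.70 for H3K4me3 and 0.567 to 1.75 for H3K27Ac). Values were compared on the log2(height + pseudocount) scale, which understates changes of low peaks, with limma 3.58.1 in R 4.3.3 over the 6 wild-type libraries of P0, P14 and P21, and over all 9 H3K27Ac libraries for P12. The pseudocount was the 5th percentile of values above 0, features needed a peak in 2 libraries, and the threshold was an adjusted p under 0.05. Counts without overlap mean that both libraries of one stage lay outside the other. Python 3.11.15 was used for all else. The fitting step was tested on simulated heights of genes with a peak in every library. That simulation did not cover missing peaks or the pseudocounts used here.

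The 8 genes, the lists of other progenitor genes, photoreceptor transcription factors and cell type markers, and the tests were chosen with earlier results of these data known. All 8 genes are named in each comparison, and of each list at most the 3 with the largest change among those that passed. The 5 genes nearest in profile are named. Other regions described were chosen after their values were seen. The numbering of the P14 H3K4me3 libraries follows their titles (replicates 2 and 3), called first and second here.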

Additional observations from a re-analysis of the deposited data

How the results depend on the processing

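Of the 8 genes, 1 passed the test for H3K4me3 height at P14 and 2 at P21. With no filter on genes, and with no scaling, 0 passed at either stage, with the strongest 50% of peaks 2 at P14, with peaks placed by their summit 1 at P21, and with a library left out 0 to 2 at P14 and 1 to 2 at P21. Sox2 passed at P14 (adjusted p = 0.0159) with the strongest peaks, and the Pax6 calls were lost by summit (adjusted p = 0.737 and 0.254). Over all genes the calls at P14 went from 171 (115 lower and 56 higher) to 15 without scaling (6 and 9) and 386 with the strongest peaks, 310 with a pseudocount of 1, 77 with no filter and 53 to 101 without 1 of 3 libraries. At P21 they went from 623 (536 and 87) to 49 (16 and 33) without scaling, 110 with no filter, 280 with the strongest peaks and 126 to 277 without 1 of 3 libraries. Between P21 and P14 they were 0 to 26 against 3.

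For H3K27Ac promoters, where no gene passed, a peak in every library gave 22 at P14 and 29 at P21, and no filter gave 44 at each. For H3K27Ac regions of the 8 loci, a pseudocount of 1 gave 7 at P14 against 0. At P21 there were 14, but 0 with a peak in every library or without scaling, and 0 to 22 with a library left out. Over all regions the P21 calls were 3465, with 234 for a peak in every library, 0 without scaling and 0 to 7205 with a library left out. The P14 calls were 0, with 2489 at a pseudocount of 1 and 105 for a peak in every library. Scaling moved the median of all genes from -0.16 to -0.03 for H3K4me3 at P14 and from -0.49 to -0.24 for H3K27Ac at P21, and of regions at P21 from 0.23 to 0.52.

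H3K27me3 covered more of the start window in all 4 later libraries than in either P0 library at 1 of the 8 genes, and at 4 with a window of 5 kb. There were 117 Brg1 peaks with 50 kb on each side against 106.

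Signs turned for Six3, Six6, Rax, Meis1 and Meis2, and for no other of the 8 genes, in the settings run for P14 and P21 against P0. For H3K4me3 at P14 these were Meis1 without scaling (-0.0205) and Six3 by summit (0.83), and, with a library left out, Six6 (range -0.57 to 0.0708, positive without P0 replicate 1) and Meis2 (-0.57 to 0.0490, positive without P14 replicate 3). At P21 they were Six6 with a 5 kb window (0.12), Six3 by summit (0.85), and, with a library left out, Six6 (-0.63 to 0.0123, positive without P0 replicate 1) and Meis1 (-0.0641 to 0.15, negative without P0 or P21 replicate 2). For H3K27Ac at P14 they were Six6 with a 5 kb window (0.35), and, with a library left out, Rax (-0.70 to 0.16, positive without P0 replicate 1 or P14 replicate 2) and Meis2 (-0.14 to 0.32, negative without P0 or P14 replicate 1). At P21 they were Six6 (-0.17) and Meis1 (-0.20) without scaling and Rax with a library left out (-0.82 to 0.0262, positive without P0 replicate 1). The cause was not tested.

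Replicate numbers are shared by P0, P14 and P21 libraries without any statement of pairing, and deviations of same-numbered libraries correlated across genes at 0.141 for H3K4me3 and from 0.0617 to 0.487 for H3K27Ac. A replicate block gave 22 regions of the 8 loci at P21 against 14, 6269 against 3465 over all regions, and 1310 against 623 genes for H3K4me3 at P21, and it moved no other count of the 8 genes that passed. The block could not be fitted for H3K4me3 at P14, whose libraries share 1 number with those of P0 and P21, or for the P12 groups, which share fewer than 2.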
